A study of Homo sapiens with 4 samples.

Results

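The genes examined here encode the Fanconi anemia, homologous recombination and DNA damage-signalling proteins, together with selected end-joining, single-strand break and mismatch repair proteins. They were taken by name, as the protein-coding rows of 49 listed gene symbols in the deposited table of RNA-seq in MDA-MB-231, a long-established line of triple-negative human breast cancer. Of these genes, 46 had a protein-coding row, among 12120 genes with such a row in the whole table, and 3 genes, namely MRE11A, ATRIP and CHEK2, are not analysed here. The study treated the cells for 24 h with the solvent DMSO (2 libraries) or with 10 µM KH-3 (2 libraries), a small molecule inhibitor of the RNA-binding protein HuR. The deposited measurement is the authors' mean normalized read count of each transcript over the libraries, with no value per library or per group. Which libraries enter that mean is not stated in the sources used here, and DMSO and KH-3 cells cannot be told apart in it. The results below are therefore levels and transcript make-up in these cultures as a whole, and no difference between KH-3 and DMSO is given. Sequencing depth, the spread between replicates and the error of each mean are unknown for the same reason, so no value carries an error and no test was made, and whether neighbours in an order of levels differ beyond their spread is unknown.

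Cells repair a broken chromosome either by copying the intact sister chromatid, which is homologous recombination, or by joining the ends directly. The Fanconi proteins act where a crosslink between the DNA strands blocks replication. A multi-protein core complex attaches ubiquitin to the FANCD2 and FANCI clamp, and repair then passes to nucleases and to recombination proteins such as BRCA1, BRCA2 and PALB2. Recombination is used mainly by cells that replicate their DNA, and the kinases ATM and ATR report damage to the checkpoint machinery.

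The identity of the culture was read from marker genes first. VIM and AXL, which mark mesenchymal-like breast cancer cells, were at 3786 and 2814 mean normalized reads per kb of transcript, at percentiles 99.0 and 98.5 of all protein-coding genes. CD44, a surface marker of the same cells, was at 427 reads per kb. ERBB2 and EPCAM, a receptor and an epithelial adhesion gene, were at 24.1 and 43.3 reads per kb. The hormone receptor genes ESR1 and PGR are not analysed here.

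To compare genes, the mean normalized read count of each protein-coding transcript was divided by its length in kb and summed over the gene, which gives the level used below. The levels of the 46 repair genes ran from 18.9 to 1985 reads per kb with a median of 131, against a median of 117 for all protein-coding genes. Above that median lay 26 of the 46 genes (56.5%). The share passed to the other side of 50% under 2 alternatives, as 22 genes (47.8%) lay above it with all transcript types added and 21 of 45 (46.7%) with transcripts of a mean of at least 20 alone. The middle of the distribution was crowded, since 34 repair genes fell between the 25th and 75th percentiles of all genes, and only 3 lay under the 25th. Another 9 (19.6%) lay above the 75th percentile. Levels did not follow transcript length across the 46 genes (Pearson's r = 0.02 and Spearman's rho = -0.04 between the log2 length of the most abundant coding transcript and the log2 level, a description across genes of the same libraries).

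**Figure D1:**
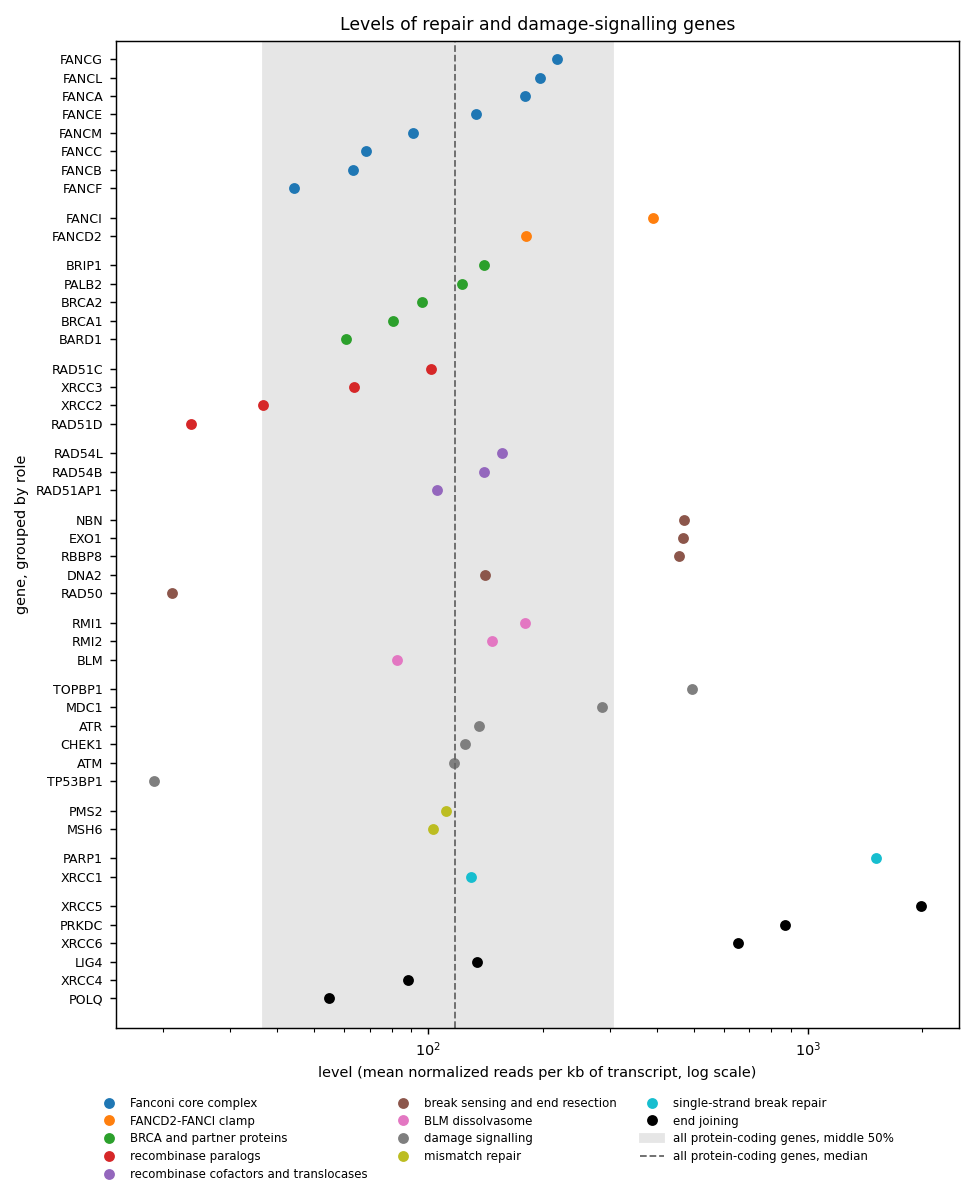
Level of each of the 46 genes in mean normalized reads per kb of transcript (x axis, log scale), with genes grouped and coloured by role (y axis). Each point is the authors' mean over libraries, the dashed line is the median of all 12120 protein-coding genes (117) and the grey band runs from their 25th to their 75th percentile (36.6 to 306). Only RAD50, TP53BP1 and RAD51D sit left of the band, and XRCC5 and PARP1 lie farthest to the right.

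The 4 highest levels were those of XRCC5, PARP1, PRKDC and XRCC6. XRCC5, which encodes the Ku80 subunit of the Ku ring that encircles broken ends, had the highest level, at 1985 reads per kb. Its transcript ENST00000392132.6 alone had a mean normalized read count of 6753 over 3428 bases. The XRCC5 gene is at chr2:216107464-216206303 in hg38, plus strand. PARP1, the enzyme that marks DNA breaks with poly(ADP-ribose), followed at 1511 reads per kb and rested on a single coding transcript, ENST00000366794.9, with a mean normalized read count of 5979. The PARP1 gene is at chr1:226360210-226408154, minus strand. PRKDC, the catalytic subunit of the DNA-dependent protein kinase that Ku recruits, stood at 871 reads per kb. Its main transcript, ENST00000314191.6, is 13509 bases long with a mean normalized read count of 9799, ENST00000338368.7 had 1145 and ENST00000536429.1 had 37.1. PRKDC also had the largest summed read count of the 46 genes, 10982. XRCC6, the Ku70 partner of XRCC5, was at 654 reads per kb. These 4 genes were the only ones with a level over 5 times the median of all genes.

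The other end-joining genes were much lower. LIG4, the ligase that seals the ends, was at 135 reads per kb, and its scaffold XRCC4 was at 88.5. POLQ, the polymerase of the alternative end-joining route, was at 54.6 reads per kb. The 6 end-joining genes thus spanned a 36.4-fold range. XRCC1, a scaffold of single-strand break repair, was at 129 reads per kb, well under PARP1 although both serve that pathway.

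Break sensing and end resection genes had a median level of 456 reads per kb over 5 genes. NBN, a subunit of the MRN complex that first binds a break, was at 472 reads per kb. The exonuclease EXO1 was at 470 and RBBP8, which encodes the resection factor CtIP, at 456 reads per kb. DNA2, the nuclease and helicase that extends resection, was at 141. RAD50, the long coiled-coil ATPase of the same MRN complex as NBN, was at 21.2 reads per kb, the second lowest level of all 46 genes. By the most abundant transcript alone the median of this group was 153 reads per kb, against 85.7 for all genes. NBN was then at 230, RBBP8 at 175, EXO1 at 153 and DNA2 at 128. Of the RBBP8 level, 151 reads per kb came from a 1195-base form, and of the EXO1 level, 95.9 from a 607-base form. Both forms have an incomplete coding sequence in the reference.

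Among damage-signalling genes TOPBP1, the activator of ATR, was highest, at 495 reads per kb, and the chromatin adaptor MDC1 followed at 287. The kinases were close to one another by the level used here. ATR stood at 136, CHEK1 at 125 and ATM at 117 reads per kb. Their order and distance depended on the choice of level. Without division by length ATM was at 1316 reads, ATR at 1076 and CHEK1 at 366. With all transcript types ATM was at 239 reads per kb, CHEK1 at 152 and ATR at 136. By the most abundant transcript alone ATR was at 121, CHEK1 at 90.2 and ATM at 55.7 reads per kb. TP53BP1, the adaptor that restrains end resection, had the lowest level of the 46 genes, 18.9 reads per kb, from the single transcript ENST00000382044.8 of 10384 bases with 197 mean normalized reads. Its gene is at chr15:43403061-43510728, minus strand. The lowest rank of TP53BP1 depended on the choice of level. Without division by length RAD50 was lowest, at 30.2 reads against 197 for TP53BP1. By the most abundant transcript alone RAD50 was also lowest, at 13.4 reads per kb against 18.9.

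The Fanconi core complex held 8 genes between 44.2 and 219 reads per kb, with a median of 112 and 4 genes on each side of the median of all genes. Only 3 lay above it without division by length, by the most abundant transcript alone, with all transcript types or with a minimum mean of 20. FANCG, FANCL and FANCA were the upper members, at 219, 197 and 180 reads per kb. FANCL is the ubiquitin ligase subunit, while FANCA and FANCG form a subcomplex with each other. FANCE was at 133 reads per kb. The DNA translocase FANCM, which anchors the complex to DNA, was at 90.8. FANCC and FANCB were at 68.4 and 63.5, and FANCF, a gene without introns that acts as an adaptor, was lowest at 44.2 reads per kb. Of the FANCL level, 45.3 reads per kb came from 23.6 reads on a transcript listed with 522 bases that has 1483 in the reference. With reference lengths, an alternative chosen after seeing the data, FANCL was at 156 and FANCA at 168. By the most abundant transcript alone FANCE was at 133, FANCA at 85.9, FANCL at 72.6 and FANCC at 39.0, below FANCF. The 2 clamp genes that this complex modifies were higher than most of it, with FANCI at 391 and FANCD2 at 180 reads per kb.

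The BRCA proteins and their partners ranged from 60.8 to 140 reads per kb. BRIP1, a helicase that binds BRCA1, was highest at 140, and PALB2, which bridges BRCA1 and BRCA2, was at 123. BRCA2, which loads the recombinase onto DNA, was at 96.3, BRCA1, a ubiquitin ligase and scaffold, at 80.7, and its partner BARD1 at 60.8 reads per kb. The first place of BRIP1 depended on the choice of level. With all transcript types PALB2 was at 141 and BRIP1 at 140 reads per kb. With reference lengths, an alternative chosen after seeing the data, PALB2 was at 123 and BRIP1 at 109. Without division by length BRCA2 was highest, at 1147 reads against 801 for BRIP1. Of the BRCA1 level, 15.2 reads per kb came from a transcript listed with 718 bases that has 7613 in the reference. BRCA2 had the larger summed read count of the 2 BRCA genes, 1147 against 439, but this was not adjusted for transcript length.

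The recombinase paralogs, which help form and hold the recombinase filament, had the lowest median of the groups, 50.1 reads per kb, and none of the 4 exceeded the median of all genes. With all transcript types added their median was 115 reads per kb, above the 112 of the Fanconi core complex, and RAD51C exceeded the median of all genes. RAD51C was at 102, XRCC3 at 63.6, XRCC2 at 36.6 and RAD51D at 23.6 reads per kb. Of the RAD51C level, 95.7 reads per kb came from a 567-base form that encodes 135 residues, and 5.86 from the full form. With all transcript types RAD51C was at 202, XRCC2 at 146, XRCC3 at 85.0 and RAD51D at 27.1 reads per kb. RAD51D had 1 listed coding transcript, ENST00000345365.10, of 9988 bases with a mean normalized read count of 236. A level per kb depends on the annotated length, and most of the RAD51D transcript is 3′UTR (8732 bases in the reference). The filament cofactors were more even. RAD54L and RAD54B, DNA translocases that act on the filament, were at 157 and 140 reads per kb, and RAD51AP1, a stimulator of strand pairing, was at 106.

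The helicase BLM was at 82.5 reads per kb. This was below RMI1 and RMI2, subunits that act with it to dissolve crossed DNA strands, which were at 179 and 147. Their order depended on the choice of level. With all transcript types BLM was highest, at 187 reads per kb against 179 for RMI1 and 155 for RMI2. Without division by length BLM was at 416 reads, between RMI1 at 519 and RMI2 at 214. In the other ways of building a level BLM stayed below both. The mismatch repair genes PMS2 and MSH6 were at 111 and 103 reads per kb. Most of the MSH6 level, 71.3 reads per kb, came from 39.1 reads on a transcript listed with 548 bases, ENST00000411819.1. With the lengths that the reference gives, an alternative chosen after seeing the data, PMS2 was at 78.3 and MSH6 at 46.1 reads per kb, and their summed read counts were 313 and 189. GENCODE release 44 names 15 pseudogenes of PMS2, so its level depends on how shared reads were divided. The same holds to a lesser degree for XRCC6 (5 pseudogenes of that name), PARP1 (2), and for BRCA1, FANCD2, RBBP8 and RAD51AP1 (1 each).

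Proteins that work as fixed partners need not have equal mRNA levels, and the pairs were compared directly. Of 14 pairs set out, 12 had both genes in the table, and 8 of these lay within 2-fold of each other by the level used here. The share of pairs within 2-fold among genes that are not partners was not computed, so this count does not show that partners are closer than other genes. BRCA1 and BARD1 were 1.33-fold apart, and they were the 1 pair within 2-fold under every one of the 7 ways of building a level that were tried, where they ranged from 1.09-fold to 1.41-fold apart. FANCA and FANCG were 1.22-fold apart, but 2.54-fold by the most abundant transcript alone. RMI1 and RMI2 were 1.22-fold apart, and 2.43-fold without division by length. BRCA2 and PALB2 were 1.28-fold apart, and 2.34-fold without division by length. The other pairs within 2-fold depended more on the choice. RAD51D and XRCC2 differed by 1.55-fold, with a range from 1.01-fold to 5.36-fold, the latter with all transcript types. LIG4 and XRCC4 differed by 1.52-fold, with a range from 1.04-fold to 3.79-fold. RAD51C and XRCC3 differed by 1.60-fold, and by up to 4.72-fold with the most abundant transcript alone, and FANCC and FANCE by 1.95-fold, with a range from 1.16-fold to 3.42-fold. Which gene was the higher also changed among these ways for 7 of the 8 pairs, FANCC and FANCE being the exception. Among the wider pairs FANCI was 2.17-fold above FANCD2, with a range from 1.60-fold to 3.25-fold. XRCC5 was 3.04-fold above XRCC6, but 1.23-fold with all transcript types, 4.63-fold without division by length and 4.68-fold by the most abundant transcript alone. FANCL was 3.10-fold above FANCB, with a range from 1.37-fold to 3.66-fold. NBN and RAD50 were the widest pair, 22.3-fold apart, with a range from 14.4-fold with all transcript types to 66.3-fold without division by length.

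**Figure D2:**
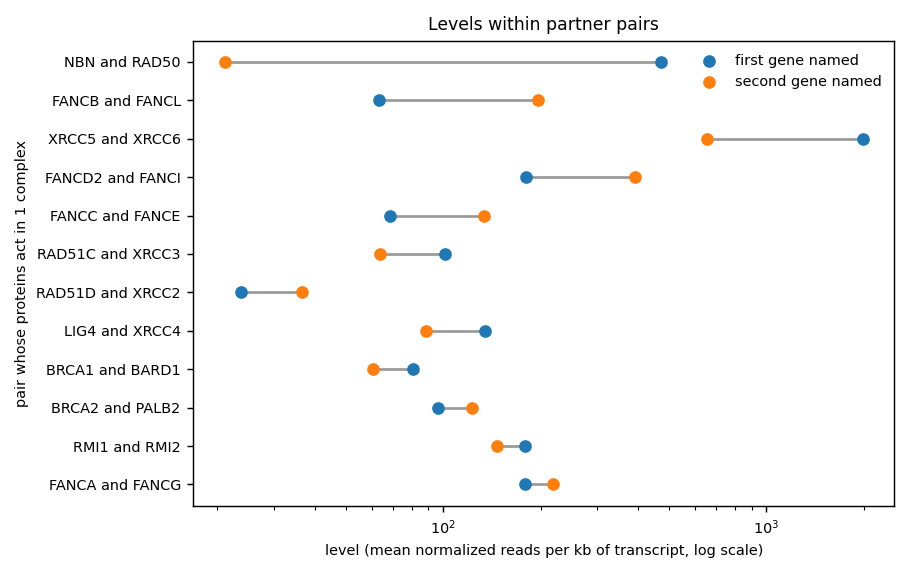
Levels of the 12 partner pairs in mean normalized reads per kb of transcript (x axis, log scale), sorted from the widest to the closest pair; blue points are the first gene named, orange points the second, and the line joins them. NBN and RAD50 are 22.3-fold apart, while the last pair, FANCA and FANCG, is 1.22-fold apart.

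The low RAD50 level came from an unusual set of transcripts. The coding rows were ENST00000434288.1, of 1052 bases with a mean normalized read count of 14.1, and ENST00000453394.5, of 2076 bases with 16.1. In the reference they encode 157 and 660 residues, against 1312 for the longest RAD50 coding sequence, and a transcript with the full coding sequence is not analysed here. The remaining row, ENST00000533482.5, is 4373 bases long with 25 exons and annotated as a target of nonsense-mediated decay, the pathway that removes mRNAs with an early stop codon. It had a mean normalized read count of 55.9, or 64.9% of all RAD50 reads. NBN itself rested on ENST00000409330.5 with a mean normalized read count of 1039 and ENST00000265433.7 with 931, which encode 672 and 754 residues.

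The 46 genes had 190 rows in all, of which 121 were protein-coding, 31 retained-intron, 23 nonsense-mediated decay and 15 processed transcripts. The most abundant coding transcript held a median of 75.2% of a gene's level, against 85.2% for all genes. Fewer repair genes had only 1 coding row, 8 of 46 (17.4%) against 36.7% of all genes. Among genes with at least 2 coding rows the median shares were 69.7% for the repair genes and 67.5% for all genes. In 8 repair genes the most abundant coding transcript held less than 50% of the level. Of these, XRCC3 was the most evenly divided, with 4 coding transcripts between 11.7 and 20.3 reads per kb that all encode the same 346 residues. EXO1 was divided among 5, led by ENST00000366548.7 and ENST00000348581.9 at 153 and 142 reads per kb, which both encode the full 846 residues.

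**Figure D3:**
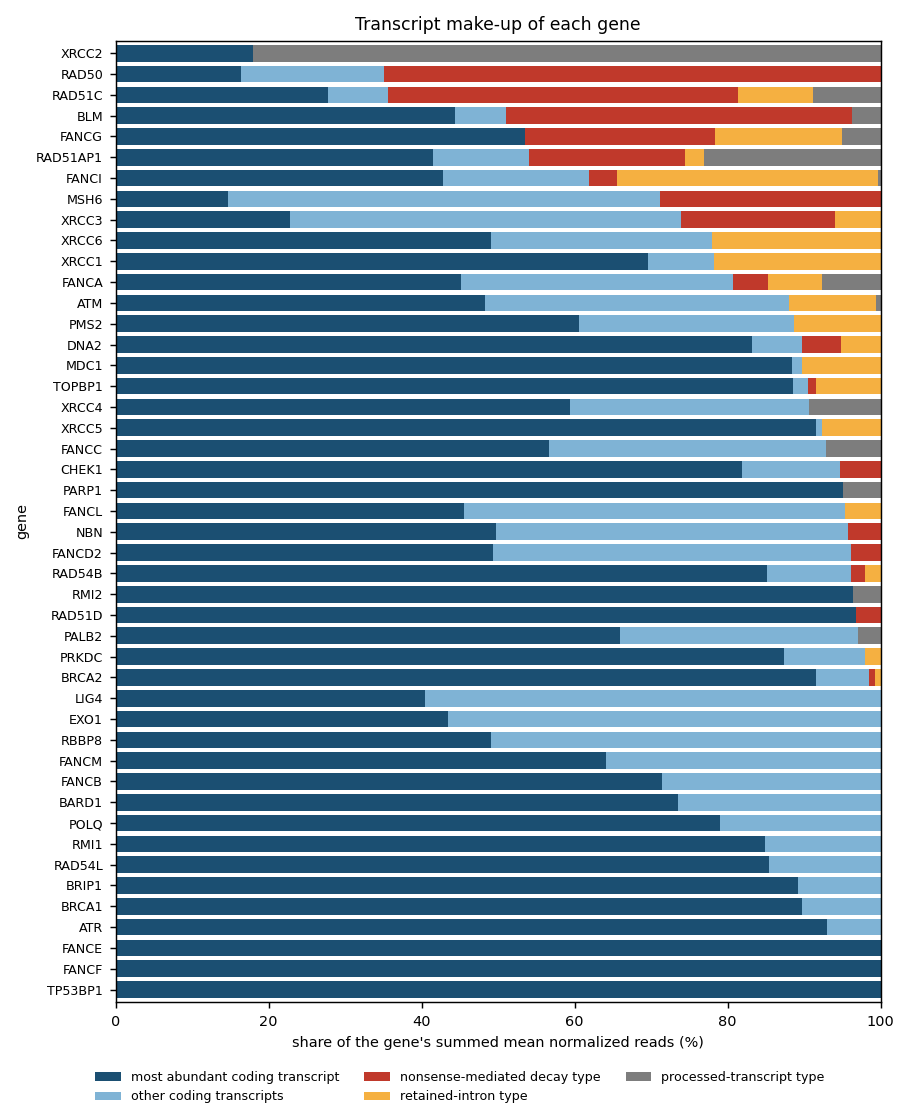
Share of each gene's summed mean normalized reads (x axis, percent) held by the most abundant coding transcript, other coding transcripts and the 3 other transcript types, for the 46 genes (y axis, sorted by the share of the other types). XRCC2, RAD50 and RAD51C, the top 3 bars, have 82.1%, 64.9% and 64.4% of their reads outside coding transcripts, and the last 15 bars have none.

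Reads on transcripts of other types were found for 31 of the 46 genes (67.4%), against 53.0% of all genes, and made up over 20% of the reads of 11 genes (23.9%), against 23.2% of all genes. Adding these types moved the level per kb of 13 genes by over 1.5 times. XRCC2 was the most extreme, with a mean normalized read count of 515 on the processed transcript ENST00000495707.1 and 112 on its coding transcript ENST00000359321.1. The listed coding form is 3067 bases long and the processed form 4728, close to the 4771 bases that the reference now gives the coding form, so the division of reads between them depends on the annotation used. RAD51C had 45.8% of its reads on nonsense-mediated decay transcripts. BLM had nearly equal counts on its main coding transcript, 361, and on the decay target ENST00000559724.5, 368. FANCG and RAD51AP1 had 46.5% and 45.9% of their reads outside coding transcripts. For FANCI the larger part of such reads was on a retained-intron transcript of 4663 bases, with a mean normalized read count of 818 against 1027 for the main coding transcript. For XRCC6 it was a single retained-intron transcript of 359 bases with 415 reads. MSH6, XRCC3 and XRCC1 had 28.8%, 26.1% and 21.8% of their reads on other types.

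The coding sequence of the most abundant coding transcript was compared with the longest one of the same gene in GENCODE release 44. It was under 90% of the longest in 3 of the 44 repair genes whose transcript was in the reference (6.82%), against 19.0% of 11708 genes. These were RAD50, RAD51C and NBN. The contrast depended on the cut, since 2 of the 44 (4.55%) were under 50% of the longest, against 5.84% of all genes. The leading transcripts of FANCD2 and FANCB were not in the reference. For RAD51C the leading form ENST00000421782.3 is 567 bases long, encodes 135 of 376 residues and had 54.3 mean normalized reads, while the full form ENST00000337432.8 of 2591 bases had 15.2. For NBN the leading form encodes 672 of 782 residues (85.9%). The leading transcript was the MANE Select transcript, the reference choice for a gene, in 32 of the 44 genes (72.7%), against 63.2% of all genes. The leading MSH6 transcript is listed with 548 bases but has 3974 in the reference, with a coding sequence of 3783 bases. That coding sequence is longer than the form that was counted, so the share scored for MSH6 is not that of this form. With only transcripts within 5% of their reference length, a choice made after seeing the data, the number under 90% was again 3.

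HuR, the target of KH-3, binds AU-rich stretches in the 3′UTR of mRNAs, so the sequence AUUUA was counted in the 3′UTR of the most abundant coding transcript, on the transcript strand alone and with overlaps allowed. It was present in 38 of 44 repair genes (86.4%), against 71.2% of 11439 genes. Set against all genes in the repair genes' own deciles of 3′UTR length, the mean share was 66.4%, and this difference was not tested. The share was 86.5% (32 of 37) when only transcripts within 5% of their reference length were kept, a choice made after seeing the data. The longer motifs were at or under their share in all genes. UAUUUAU, which contains AUUUA, was in 14 genes (31.8%) against 33.5% of all genes, and UUAUUUAUU, which contains both, was in 1 (2.27%) against 8.72%. By their most abundant coding transcript, the genes without AUUUA were XRCC6, EXO1, MSH6, RAD51C, FANCM and XRCC3. It was present in other coding transcripts of FANCM (2 copies in ENST00000267430.9), RAD51C (3 in ENST00000337432.8) and EXO1 (1 in ENST00000518483.5). By the listed transcript with the longest 3′UTR, 42 of 46 genes held AUUUA. FANCD2 and FANCB, whose leading transcripts were not in the reference, entered this count through other coding transcripts with 2 copies each. The share of all genes was not computed for that choice. Across the 44 genes the number of AUUUA rose with 3′UTR length (r = 0.87, rho = 0.84, a description across genes). A match of letters is not a binding site, and HuR binding was not measured here.

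**Figure D4:**
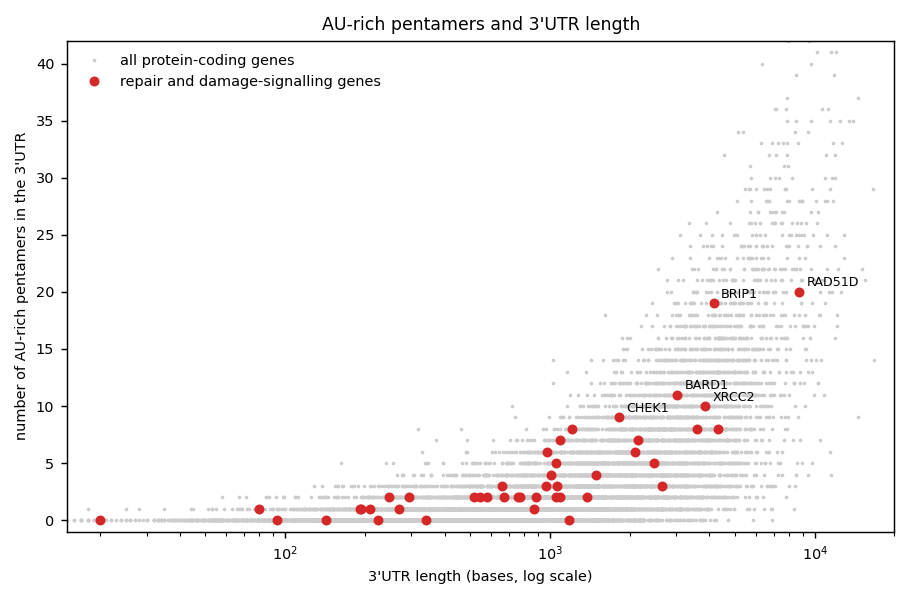
Number of AUUUA pentamers in the 3′UTR of the most abundant coding transcript (y axis) against 3′UTR length in bases (x axis, log scale) for the repair genes (coloured points, n = 44) and all genes (grey, n = 11439, of which 45 lie outside the axes). RAD51D, with 20 pentamers in 8732 bases, and BRIP1, with 19 in 4157, are the highest repair genes.

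RAD51D had most copies of AUUUA, 20, followed by BRIP1 with 19 and BARD1 with 11. BRIP1 rested on ENST00000259008.6 with a mean normalized read count of 714, and its second coding transcript, ENST00000577598.5, had 86.3. BARD1 rested on ENST00000260947.8 with 245 and ENST00000617164.4 with 88.3. The 3′UTR of BRIP1 was read from a reference form of 8182 bases, longer than the 6048 bases listed, so some copies may lie outside the counted form. CHEK1 was the 1 gene with UUAUUUAUU in the 3′UTR of its leading transcript. Coding transcripts other than the leading one held it in FANCD2 (ENST00000419585.5) and ATM (ENST00000530958.5 and ENST00000531525.2). The windows below are of 25 bases on the transcript strand from hg38. They show each UAUUUAU (capitals) in the reference forms of the leading transcripts of these 3 genes with most AUUUA and of CHEK1. All lie in the last part of the mRNA, the 3′UTR, of those forms. The BRIP1 copy is at base 2459 of its reference 3′UTR. With the reference coding sequence of 3747 bases before it, this copy lies beyond the 6048 bases listed for the counted form.
RAD51D, chr17:35096860-35096884, minus strand: agggacacuUAUUUAUauuuauuuc
RAD51D, chr17:35096854-35096878, minus strand: acuuauuuaUAUUUAUuucuuuuau
RAD51D, chr17:35093979-35094003, minus strand: ggcaggauuUAUUUAUauuuuaauu
BRIP1, chr17:61680822-61680846, minus strand: aaagcuagaUAUUUAUuuucgcaau
BARD1, chr2:214726977-214727001, minus strand: gucauuuuuUAUUUAUaacagacuu
CHEK1, chr11:125656509-125656533, plus strand: aaccuguuuUAUUUAUuugaaccua
CHEK1, chr11:125656901-125656925, plus strand: ucugacauuUAUUUAUcugaacacu
The first RAD51D windows overlap, since these copies lie 6 bases apart. The first CHEK1 window is the one that holds UUAUUUAUU.

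Of 34 other genes of these pathways, 33 had a protein-coding row, with a median level of 115 reads per kb and a median percentile of 49.6. The highest were RPA3 and RPA1, subunits of the protein that coats single-stranded DNA, at 1074 and 755 reads per kb, and H2AFX, the histone variant phosphorylated at breaks, at 827. The lowest were RAD17, a checkpoint clamp loader, at 6.08, RAD52, a strand-annealing protein, at 13.5, and FAM175A, a scaffold of a BRCA1 complex, at 18.6 reads per kb.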

How the data were processed

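RNA-seq libraries of MDA-MB-231, 2 given DMSO and 2 given 10 µM KH-3, were measured. Per the study's methods, the authors used STAR for alignment to GENCODE release 24 transcripts, eXpress for counting and DESeq2 for comparing groups, with hg38 named in the labels. Tool versions are not given in the sources used here. The methods also name a 5 µM group, which is not analysed here. The authors deposited 1 table of 43596 transcripts, and its mean normalized read count, a signal averaged over libraries, is the only measured column used. Transcripts under a mean of 7.34 are not listed. The log2 fold change, p-value and q-value columns are the authors' own comparison of KH-3 with DMSO and were not used, so no test was made and the tests planned for that comparison were not run. Depth per library, and thus precision, is unknown.

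Each mean was divided by transcript length in kb and summed over the protein-coding transcripts of a gene (26348 transcripts, 12120 genes). How eXpress divides reads among overlapping transcripts affects every value per transcript. Gene positions, coding sequences and 3′UTRs came from hg38 and GENCODE release 44, matched by transcript ID without version. Of the 121 coding transcripts 111 were found, 52 of them with the same length, and 37 of the 46 leading ones were within 5% of it. Every listed gene was named with its level. Transcripts were given for the 3 highest and 3 lowest genes, for pairs over 4-fold apart and for the 3 genes with most AUUUA, and other transcripts were chosen after their values were seen. The genes and lists were chosen with earlier results of these data known. Python 3.11.15, pandas 2.3.3, numpy 2.4.6, scipy 1.17.1 and matplotlib 3.10.9 were used, and the scripts were tested on simulated data. Alternatives were levels without length, other transcript types, a minimum mean of 20, length less 200 bases, reference lengths (added after seeing the data), the most abundant transcript alone and longer motifs. Others included the listed transcript with the longest 3′UTR and a cut at 50% of the longest coding sequence.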

Additional observations from a re-analysis of the deposited data

How the results depend on the processing

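No paired analysis was possible because no value per library was used, and for the same reason the comparison of KH-3 with DMSO, its pseudocount, filter and replicate block, and leaving out each library were not run. The median percentile of the repair genes' levels, 52.8, was 56.9 without division by length, 51.2 for the most abundant transcript alone, 49.9 with all transcript types and 49.6 with a minimum mean of 20 and 53.1 with reference lengths, an alternative chosen after seeing the data, so it lay near the middle of all genes throughout. The median share of the leading transcript, 75.2%, was 81.9% of read counts, 79.5% with that minimum and 58.3% of all types. The genes above the median of all genes numbered 26 and from 21 to 28 over the alternatives. Pairs within 2-fold numbered 8, and 5 without division by length. By the leading transcript, genes with AUUUA numbered 38 of 44, those with UAUUUAU 14 and those with UUAUUUAUU 1. By the listed transcript with the longest 3′UTR, genes with AUUUA numbered 42 of 46, with FANCD2 and FANCB added to the genes counted. Leading transcripts with a coding sequence under 90% of the longest numbered 3, and those under 50% numbered 2. Some pair ratios turned over 1 or under it. Without division by length BRCA2 over PALB2 was 2.34, FANCA over FANCG 1.46, RAD51C over XRCC3 0.412 and RAD51D over XRCC2 2.10. With the most abundant transcript alone BRCA2 over PALB2 was 1.07, LIG4 over XRCC4 0.961 and RMI1 over RMI2 0.877. With a minimum mean of 20 BRCA1 over BARD1 was 0.915, and RAD50 had no value. With reference lengths BRCA1 over BARD1 was 0.832 and RAD51D over XRCC2 1.01. The causes were not tested beyond what each setting changes by construction. NBN stayed above RAD50 in each setting that gave a value.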
